A study of Mus musculus with 10 samples.

Results

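The 35 genes described here encode the machinery with which enterocytes, the absorptive cells of the gut lining, digest and take up food. They were chosen by symbol, and all 35 were found among the 43432 genes counted. They comprise 11 genes of lipid binding and lipoproteins, 7 of sugar, 8 of peptides and amino acids, 4 of sterols and bile acids and 5 of vitamins and other substrates. Levels were compared across sorted tuft cells of the small intestine (SI), tuft cells of the thymus and the remaining SI epithelium. The question was whether the level of these genes in SI tuft cells follows 1 common factor relative to epithelium.

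Dietary fat, sugar and protein are cut by enzymes anchored in the brush border and then carried across the enterocyte by transporters. Fatty acids are bound inside the cell by small binding proteins and leave it as lipoproteins built on apolipoproteins. Enterocyte genes are used unequally along the gut, and bile acid uptake is a function of its last segment, the ileum. Tuft cells are rare chemosensory epithelial cells that make the cytokine IL-25, and those of the intestine arise from the same stem cells as enterocytes.

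The mice were naive males aged 12 weeks of the strain C57BL6.Il25(Flare25/Flare25), in which both copies of Il25 carry the Flare25 reporter, so all 3 groups share this allele. SI tuft cells (3 libraries, numbered 2, 3 and 4) and thymic tuft cells (4 libraries, 1 to 4) were live CD45- EPCAM+ Flare25+ cells. SI epithelium (3 libraries, 1 to 3) was the Flare25- fraction of the same gate, so it holds every reporter-negative lineage and not enterocytes alone. Each library came from 1 mouse. Sorts yielded 52000 to 57000 cells for epithelium, 35000 to 36000 for SI tuft and 1350 to 1900 for thymic tuft libraries. Thymic cells were released with enzymes and SI cells with DTT and EDTA, so organ, release and cell number cannot be told apart.

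Libraries held 38659882 to 73574745 counts. Levels are given as CPM, counts per 1000000 counts of a library after TMM scaling, and 3 counts were worth 0.0408 to 0.0776 CPM. Markers were checked against the labels, and 7 of 7 tuft markers rose in SI tuft cells over epithelium and 7 of 7 in thymic tuft cells. Of all genes tested, 10.9% and 28.6% were called higher in these comparisons. Il25, 1 of the 7, carries the reporter used for sorting, so its rise is no separate check. Epithelial libraries 1, 2 and 3 and thymic libraries 3, 2 and 1 carried a small share of each other's counts. These shares were 0.503% to 0.572% of thymic counts in epithelium and 0.860% to 0.937% of epithelial counts in the thymic libraries. No such share was estimated for thymic library 4 or the SI tuft libraries.

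In SI tuft cells most of the digestion and absorption genes were about as abundant as in the surrounding epithelium or somewhat more so. Together they took 2.90% to 3.72% of the counts of an SI tuft library, 2.17% to 2.31% of an epithelial library and 0.0537% to 0.0956% of a thymic library. All 35 passed the filter on low counts. The edgeR quasi-likelihood test over all 10 libraries, with Benjamini-Hochberg adjustment over 19281 genes, called 3 of the 35 higher in SI tuft cells at an adjusted p below 0.05 and 0 lower. These were Fabp1, Rbp2 and Slc5a1. Of all genes tested 10.9% were called higher and 11.4% lower. In a fit of the 6 SI libraries alone 18 of the 35 were higher and 1, Slc3a1, was lower, against 21.6% and 21.9% of all 16063 genes tested there. The spread between replicates, as a coefficient of variation, was 0.613 over all libraries and 0.330 over the SI libraries.

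The libraries themselves show the same split without a test. For 19 of the 35 genes every SI tuft library lay above every epithelial library, for 2 (Slc3a1 and Slc10a2) every one lay below, and for 14 the groups overlapped. Over all genes tested 22.8% lay wholly above and 28.4% wholly below. In bulk RNA the share of cells in a library that hold these transcripts and the amount per cell cannot be told apart, for higher or lower levels.

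**Figure D1:**
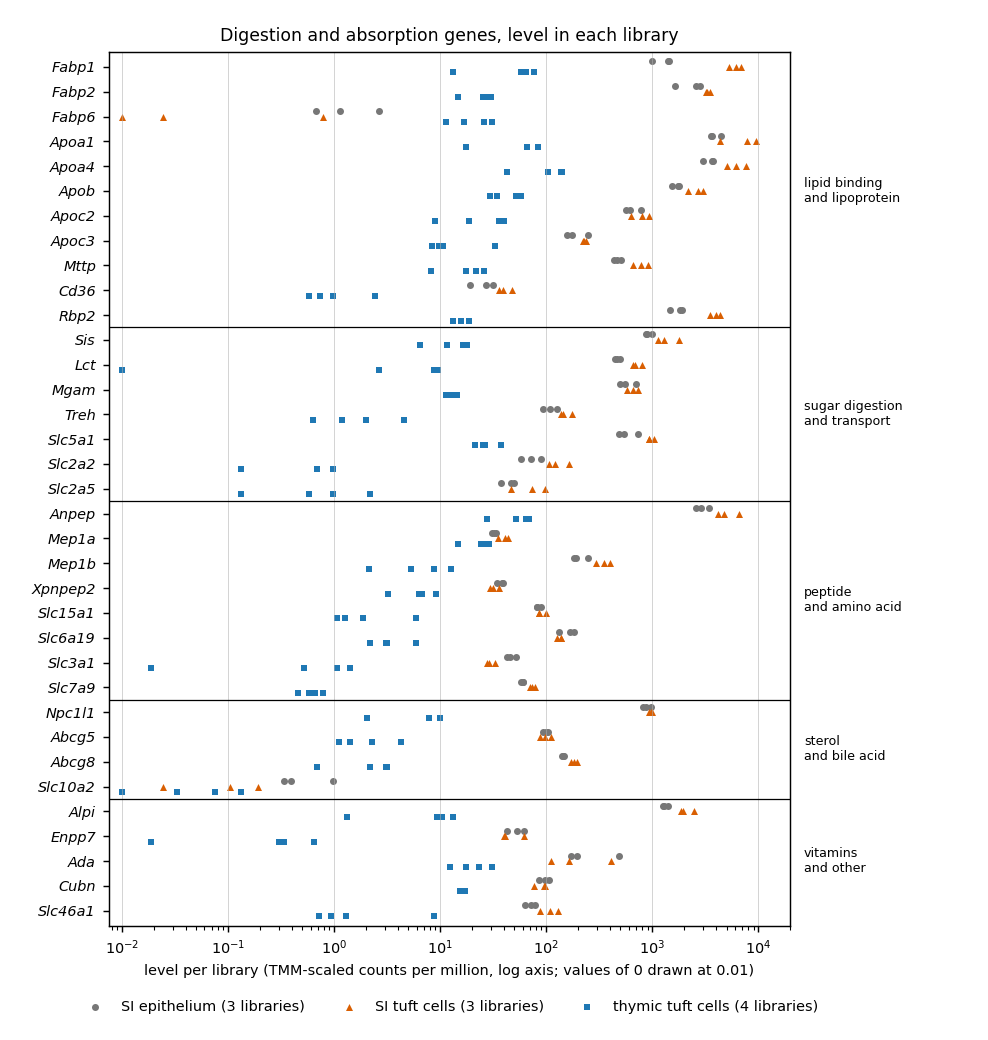
Level of each of the 35 genes in each of the 10 libraries, in TMM-scaled CPM on a log axis, with genes in rows grouped by role. Circles (SI epithelium) and triangles (SI tuft cells) lie close together over the whole range of abundance, and squares (thymic tuft cells) lie far to the left except for Fabp6, Mep1a and Slc10a2.

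The median ratio of the 35 genes, SI tuft cells over epithelium, was 0.48 on the log2 scale, or 1.40-fold. The middle of the distribution was narrow, with quartiles of 0.06 and 0.71, and 31 of 35 genes lay within 1 log2 unit of the median. Of all genes 52.2% lay within 1 unit of the same value, and the standard deviation (SD) of log2 ratios was 0.85 over the 35 genes and 2.09 over all genes. In the fit of the SI libraries alone, the SD was 0.85 over the 35 genes and 1.79 over all genes tested there. Of the latter, 57.5% lay within 1 unit of that fit's median of 0.49. The level of the factor depends on scaling. The genes' median was 0.48 with TMM, 0.47 with DESeq2 size factors and 0.20 with plain library sizes, where the median of all genes was -0.10, -0.11 and -0.38, so the genes lay 0.58 above the median gene in each.

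Most of the SD of 0.85 came from the pair of genes almost silent in these SI libraries, Fabp6 and Slc10a2. Over the other 33 genes the SD was 0.53 and the range -0.66 to 2.25. Across those 33 genes the mean levels in epithelium and SI tuft cells had a Pearson r of 0.983 on the log10 scale. This describes genes that share libraries, which are not independent replicates, and the value over 21154 genes with counts in both groups was 0.911.

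Genes were then tested against the common factor of 0.48 in place of no change, in the same fit. Fabp1 (1.77 log2 units above the factor, adjusted p = 0.0119) and Rbp2 (0.72 above, adjusted p = 0.00648) exceeded it. Cubn lay below it by a deviation of -0.58 (adjusted p = 0.0221). The 95% intervals of 30 of the 35 genes held the common value. Since the factor is the genes' own median and 29.5% of all genes tested differed from it, the count of 3 describes scatter only. In the fit of the SI libraries alone, the 95% intervals of 23 genes held that fit's own median of 0.49. The median SE was 0.166 there and 0.403 over all libraries. In the SI fit 2 genes lay above the factor and 9 below, against 51.6% of all 16063 genes. The pair above was again Fabp1 and Rbp2. Those below were Slc3a1, Slc6a19, Xpnpep2, Slc15a1, Npc1l1, Abcg5, Slc10a2, Enpp7 and Cubn, which include transporters of amino acids, peptides and sterols. A p that misses the threshold does not show that the remaining genes share 1 ratio.

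No library carried the whole difference. The median ratio to the epithelial mean was 0.39 in SI tuft library 2, 0.29 in library 3 and 0.49 in library 4, and 25, 26 and 29 of the 35 genes lay above the epithelial mean. Library 4 was the highest of the SI tuft libraries for 21 genes and library 2 for 12, whereas library 3 was the lowest for 18. Library 2 led for Fabp1, Sis, Slc2a2, Slc2a5, Anpep and Alpi. Library 4 led for Apoa1, Apoa4, Apob, Mttp and Lct, so the libraries did not differ from each other by 1 factor either.

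**Figure D2:**
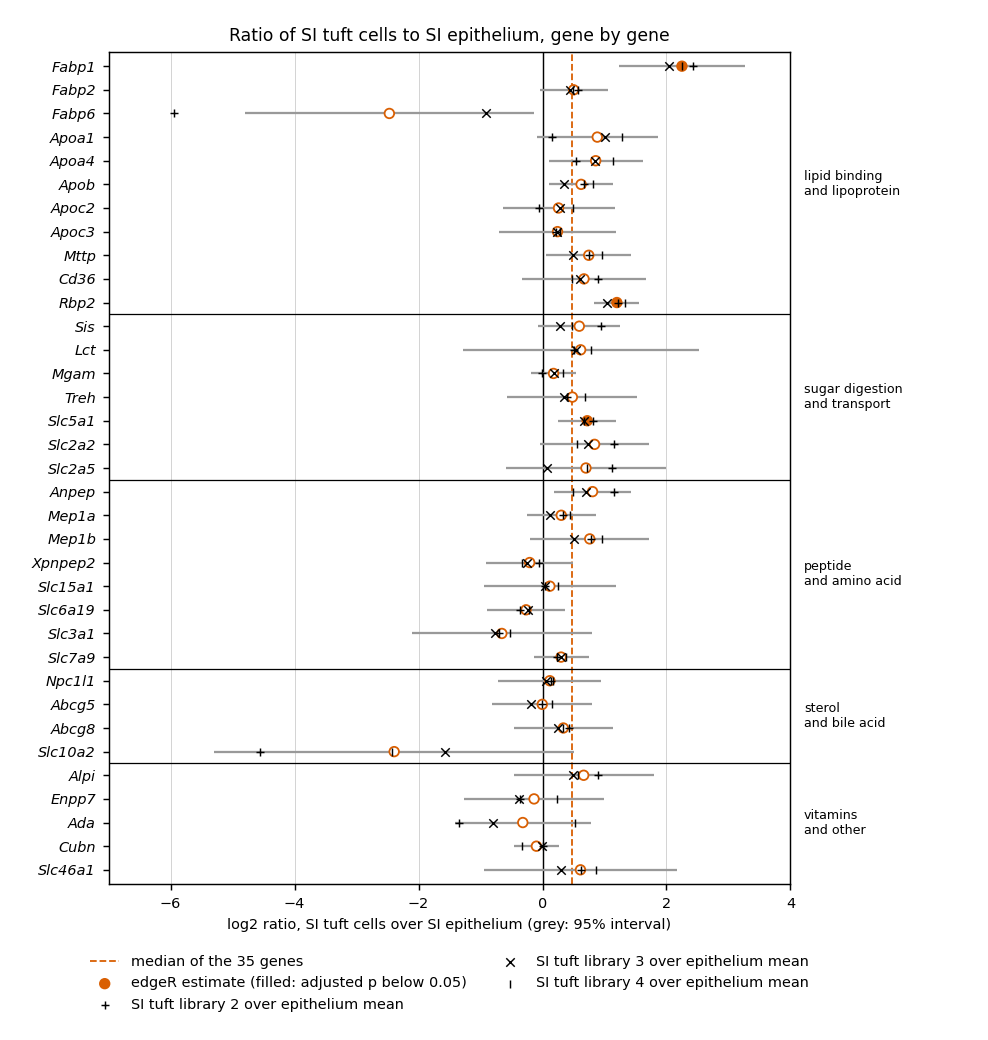
Ratio of SI tuft cells to SI epithelium for each gene on the log2 scale, with the edgeR estimate (circle, filled where the adjusted p is below 0.05), its 95% interval (grey line) and each SI tuft library over the epithelial mean (black marks). Most estimates lie near the dashed median of 0.48, with Fabp1 at 2.25 to the right and Fabp6 at -2.47 and Slc10a2 at -2.39 to the left. Fabp6 had no count in SI tuft library 4, which is not drawn.

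The sequences just before the start of the genes at both ends of the range are shown so that they can be compared. Each run holds the 250 bases before the RefSeq start (GRCm38.p6), 5′ to 3′ on the gene's strand. Capitals mark matches, on either strand, to motifs of factors known from the gut epithelium. These were GTTAAT, a half-site of HNF1, the letters AGATAA for GATA factors, then CAAAGTCCA for HNF4, and for CDX factors TTTATNG, where N is any base. Fabp1 lies at chr6:71199629-71199878 on the plus strand, Rbp2 at chr9:98490287-98490536 on the plus strand, Fabp6 at chr11:43601563-43601812 on the minus strand and Slc10a2 at chr8:5105288-5105537 on the minus strand.
Fabp1: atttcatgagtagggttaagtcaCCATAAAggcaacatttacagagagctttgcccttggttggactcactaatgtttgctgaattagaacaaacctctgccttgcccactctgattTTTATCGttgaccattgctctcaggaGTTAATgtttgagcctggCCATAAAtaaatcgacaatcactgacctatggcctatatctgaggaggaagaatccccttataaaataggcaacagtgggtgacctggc
Rbp2: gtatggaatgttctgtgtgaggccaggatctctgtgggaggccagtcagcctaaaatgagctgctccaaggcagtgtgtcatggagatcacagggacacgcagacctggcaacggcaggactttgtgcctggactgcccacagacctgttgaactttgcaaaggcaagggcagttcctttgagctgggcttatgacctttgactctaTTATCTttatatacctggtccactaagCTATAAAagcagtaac
Fabp6: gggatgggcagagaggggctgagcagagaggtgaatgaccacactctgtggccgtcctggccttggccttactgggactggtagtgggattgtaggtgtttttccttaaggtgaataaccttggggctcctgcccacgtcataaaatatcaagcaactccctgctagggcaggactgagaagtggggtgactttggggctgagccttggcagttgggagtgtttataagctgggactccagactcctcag
Slc10a2: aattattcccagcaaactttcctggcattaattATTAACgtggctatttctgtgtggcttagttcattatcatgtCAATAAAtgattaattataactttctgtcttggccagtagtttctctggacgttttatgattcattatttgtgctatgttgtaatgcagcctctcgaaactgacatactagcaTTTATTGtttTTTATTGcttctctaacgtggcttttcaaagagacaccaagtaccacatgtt
Fabp1 and Slc10a2, from opposite ends of the range, each held 1 HNF1 half-site match and 3 CDX matches. Rbp2 held 1 GATA and 1 CDX match, and Fabp6 held 0 of these motifs. The 33 genes with an entry (Apoc3 and Mep1b had none used here) were searched over the 250 bases before and 50 bases after the start, and where a gene had more than 1 entry the first was used. CDX letters were in 39.4% of them and in 11.3% of 27025 promoters, GATA letters in 24.2% and 11.4%, HNF1 letters in 18.2% and 7.20%, and HNF4 letters in 9.09% and 0.477%. No 2 of these motifs overlapped in the runs printed. A match is a run of letters and not a bound site.

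Among the genes of lipid binding and lipoproteins, Fabp1 moved most. It encodes the liver-type fatty acid binding protein, which carries fatty acids through the enterocyte, and lies on chromosome 6 (71199827-71205023, GRCm38). Its levels were 1414, 1424 and 992 CPM in epithelial libraries 1 to 3 and 6891, 5247 and 6078 CPM in SI tuft libraries 2 to 4. The lowest tuft library was thus far above the highest epithelial library, and the log2 ratio was 2.25 (SE 0.46, 4.76-fold, adjusted p = 0.00414). Fabp2, the intestinal-type protein of the same family, did not show this: it stood at 2834, 2561 and 1635 CPM in epithelium and 3487, 3174 and 3297 CPM in SI tuft cells (log2 ratio 0.50, SE 0.25, adjusted p = 0.181). The ratio of Fabp1 to Fabp2 levels was 0.499 to 0.607 in the epithelial libraries and 1.65 to 1.98 in the SI tuft libraries, without overlap. Per kilobase of exon, Fabp1 had rank 1 of the 35 genes in SI tuft cells and rank 3 in epithelium, where Apoa1 and Fabp2 stood before it.

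Rbp2, which binds vitamin A inside enterocytes, was the other lipid-binding gene called. It measured 1810, 1888 and 1464 CPM in epithelium and 4004, 3522 and 4331 CPM in SI tuft cells (log2 ratio 1.20, SE 0.17, 2.30-fold, adjusted p = 0.000259). Its 3 tuft values were close together and separate from epithelium. After subtraction of the shared counts, which touches epithelial and thymic libraries, the log2 ratio was 1.18 with an SE of 0.54 (adjusted p = 0.152). Without subtraction, in the fit of the SI libraries alone, it was 1.21 with an SE of 0.16 (adjusted p = 0.000198). The apolipoprotein genes lay nearer the common factor. Apoa4, which coats lipoproteins, had a log2 ratio of 0.86 (adjusted p = 0.101) and Apob, the structural protein of the chylomicron, 0.62 (adjusted p = 0.0812). Mttp, which loads lipid onto Apob, stood at 0.75 (adjusted p = 0.112). In the fit of the SI libraries alone these 3 were called, with adjusted p = 0.00416, 0.00923 and 0.00271. Apoa1 ranged from 4308 to 9431 CPM over the SI tuft libraries, and its lowest value fell within the epithelial range of 3601 to 4447 CPM. The smaller apolipoproteins Apoc2 (log2 ratio 0.26) and Apoc3 (0.24) overlapped with epithelium, and Cd36, a fatty acid transporter, was a low gene in both groups (25.8 and 41.0 CPM on average).

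Fabp6, the ileal bile acid binding protein of the same family, was at the other end. It measured 0.677, 1.15 and 2.65 CPM in epithelium, and 0.0243, 0.789 and 0 CPM in SI tuft cells. The groups overlapped, and the log2 ratio of -2.47 (SE 1.07) had an adjusted p of 0.123. Without SI tuft library 3, the 1 tuft library above the level of 3 counts, it was -6.65 (adjusted p = 0.00195), and the DESeq2 Wald test gave an adjusted p of 0.0411. Slc10a2, the ileal bile acid transporter, was as scarce at 0.339, 0.976 and 0.393 CPM in epithelium and 0.0243, 0.190 and 0.106 CPM in SI tuft cells. All 3 tuft values lay below epithelium, with a log2 ratio of -2.39 (SE 1.33, adjusted p = 0.231). Fgf15, a further ileal gene named after its values were seen, was listed at 0 CPM in 5 of the 6 SI libraries. The labels name the small intestine without a segment.

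The sugar genes had the narrowest range of the 5 role groups, and their 7 log2 ratios ran from 0.18 to 0.84 with a median of 0.62. Slc5a1, the sodium-coupled glucose transporter, was the sugar gene called, with 541, 484 and 729 CPM in epithelium and 1028, 933 and 931 CPM in SI tuft cells (log2 ratio 0.72, SE 0.21, adjusted p = 0.0301). This call was lost when epithelial library 1 or 2 or any of the SI tuft libraries was left out, with log2 ratios of 0.60 to 0.74 and an adjusted p of at most 0.137. It was also lost after subtraction of the shared counts (log2 ratio 0.71, adjusted p = 0.0868). In the fit of the SI libraries alone Slc5a1 was called (log2 ratio 0.73, SE 0.17, adjusted p = 0.00571). That call was kept with each of these 6 libraries left out in turn (adjusted p of at most 0.0344). Slc2a2, through which glucose leaves the enterocyte, had the highest ratio of the group. It stood at 88.3, 71.9 and 58.1 CPM in epithelium and 162, 121 and 107 CPM in SI tuft cells (log2 ratio 0.84, SE 0.40, adjusted p = 0.162). All its tuft values were above epithelium. Mgam, a starch-digesting enzyme, had the lowest ratio, with 556, 496 and 694 CPM in epithelium and 581, 660 and 735 CPM in SI tuft cells. Its groups overlapped (log2 ratio 0.18, SE 0.17, 95% interval -0.18 to 0.54, adjusted p = 0.496). Sis (sucrase-isomaltase), Lct (lactase) and Treh (trehalase) lay between at 0.59, 0.62 and 0.48, each with every tuft library above epithelium. Slc2a5, the fructose transporter, overlapped at 0.70. In the fit of the SI libraries alone 6 of the 7 were called higher, Mgam being the exception, against 21.6% of all genes tested there.

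Peptide and amino acid genes were more divided. Anpep, the brush border aminopeptidase N, was the highest at 2579, 2889 and 3383 CPM in epithelium and 6586, 4775 and 4132 CPM in SI tuft cells. All tuft values were higher, yet the log2 ratio of 0.81 (SE 0.29) missed the threshold (adjusted p = 0.0647; 0.00710 in the SI libraries alone). Slc3a1, the heavy chain of the dibasic amino acid transporter, was the lowest at 42.7, 46.0 and 52.0 CPM in epithelium and 28.8, 27.7 and 32.8 CPM in SI tuft cells. Every tuft value was lower. Slc3a1 overlaps Prepl in its exons, so reads from the shared part may come from either gene. The log2 ratio of Slc3a1, -0.66, had an SE of 0.67 and an adjusted p of 0.537 over all libraries. In the SI libraries alone it had an SE of 0.15 and an adjusted p of 0.00605. Its light chain partner Slc7a9 went the other way, with 58.0 to 60.9 CPM in epithelium and 69.9 to 77.5 CPM in SI tuft cells (log2 ratio 0.30, adjusted p = 0.335). Slc6a19, the neutral amino acid transporter, stood at -0.27 and Xpnpep2, an aminopeptidase, at -0.21. The peptide transporter Slc15a1 was at 0.12, and all 3 overlapped with epithelium. The meprin subunits Mep1a and Mep1b stood at 0.30 and 0.76 with every tuft library above epithelium.

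Apart from Slc10a2, the sterol transport genes had ratios near 0. Abcg8 had the highest ratio, with 148, 145 and 140 CPM in epithelium and 195, 171 and 181 CPM in SI tuft cells (log2 ratio 0.34, SE 0.37, adjusted p = 0.569). All its tuft values were higher, and in the SI libraries alone the same ratio had an SE of 0.12 and was called (adjusted p = 0.0359). Abcg5, with which it forms the sterol export pump, averaged 98.4 ± 5.13 CPM (SD, n = 3) in epithelium and 98.2 ± 11.4 CPM (SD, n = 3) in SI tuft cells. The pair start from opposite strands and their exons overlap, so reads from the shared part cannot be assigned without strand. Npc1l1, the cholesterol uptake protein, measured 817 to 976 CPM in epithelium and 922 to 994 CPM in SI tuft cells (log2 ratio 0.12, 95% interval -0.71 to 0.95).

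Of the remaining genes, intestinal alkaline phosphatase (Alpi) was highest, at 1248, 1301 and 1401 CPM in epithelium and 2450, 1853 and 1957 CPM in SI tuft cells. The groups did not overlap (log2 ratio 0.66, SE 0.52, adjusted p = 0.406; 0.00472 in the SI libraries alone). Slc46a1, the folate transporter, was similar at 0.61. Ada, adenosine deaminase, had the lowest ratio at -0.32 (SE 0.50, adjusted p = 0.706), and its libraries were the most uneven of the abundant genes. It stood at 195, 170 and 484 CPM in epithelium and 112, 164 and 407 CPM in SI tuft cells. Epithelial library 3 and SI tuft library 4 were the high ones, with 2.84-fold and 3.64-fold between the highest and lowest library of each group. The direction for Ada turned with single libraries, since its log2 ratio was 0.32 without epithelial library 3, 0.01 without SI tuft library 2 and -1.04 without SI tuft library 4. Cubn, the endocytic receptor for vitamin B12 with intrinsic factor, stayed level with 85.5 to 107 CPM in epithelium and 77.0 to 97.6 CPM in SI tuft cells. Enpp7, alkaline sphingomyelinase, overlapped at -0.14.

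Markers of the other SI lineages did not share the ratio of these genes. The summed mean level of 7 goblet markers in SI tuft cells was 2.32% of that in epithelium, that of 7 Paneth markers 2.59% and that of 7 enteroendocrine markers 7.65%. All 7 of each list were lower, with median log2 ratios of -5.35, -5.48 and -3.83. Of 5 stem cell markers 3 were lower (25.3% of the summed level), and of 4 proliferation markers 3 were lower (26.9%). The summed level of the 35 digestion and absorption genes was 180% of that in epithelium. Goblet markers summed to 108473 to 118031 CPM in the epithelial libraries and 2288 to 2833 CPM in the SI tuft libraries, so the makeup of the compared epithelium moves with the ratio. Mitochondrial genes took 18.6% to 23.7% of counts in epithelium and 24.1% to 33.5% in SI tuft cells. The 5 T cell markers summed to 2.50 to 5.79 CPM in epithelium and 22.5 to 34.1 CPM in SI tuft cells, where 1 of 5 was called higher and none was at 0. The part of these in the common factor was not tested.

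**Figure D3:**
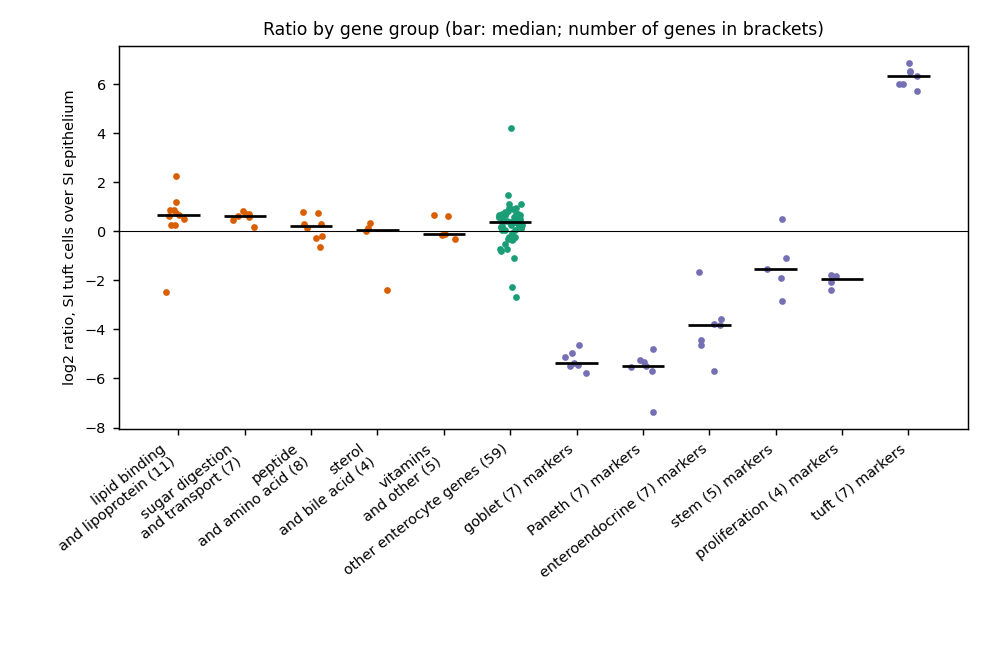
Log2 ratio of SI tuft cells to SI epithelium for every gene of each group that passed the filter (points) and the group's median (bar). The medians of the digestion and absorption groups (orange) and of 59 other enterocyte genes (green) lie near 0, with single genes from -2.47 to 2.25 and from -2.69 to 4.20. Goblet, Paneth and enteroendocrine markers (purple, left) lie several units below and tuft markers lie around 6.33 above.

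A further 60 enterocyte genes outside the 35 gave a like picture. Of these 59 passed the filter, with a median log2 ratio of 0.37, and 3 were called higher and 2 lower, against 10.9% and 11.4% of all genes. Apobec1, which edits Apob messenger RNA, was higher at 139, 119 and 127 CPM in epithelium and 264, 265 and 298 CPM in SI tuft cells (log2 ratio 1.10, SE 0.15, adjusted p = 0.000200). Thymic tuft cells also held 291 to 370 CPM of it. Glyctk, glycerate kinase of fructose metabolism, was higher at 4.20 (SE 0.92, adjusted p = 0.00577) and was low in epithelium at 2.12 to 4.37 CPM against 51.5 to 70.4 CPM. Slc43a2, an amino acid transporter, was higher at 0.71 (adjusted p = 0.0113). Nt5e, a nucleotidase, was lower at -2.28 (adjusted p = 0.00899), and so was Cybrd1, an iron reductase, at -2.69 (adjusted p = 0.0136), which was below 10 CPM in both groups and is named to complete the count. In the SI libraries alone 22 of these genes were higher and 7 lower, against 21.6% and 21.9% of all 16063 genes tested there.

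In thymic tuft cells nearly all digestion and absorption genes were far lower than in either SI group. Against SI tuft cells 33 of the 35 were lower, with a median log2 ratio of -5.68, 1 (Fabp6) was higher and 1 (Slc10a2) was not called. Of all genes tested 23.1% were lower and 28.5% higher. Against epithelium 33 were again lower (median -5.44), Fabp6 was higher and Mep1a was not called, with 22.3% of all genes lower and 28.6% higher. The SI libraries and the thymic libraries serve in more than 1 comparison each, so these counts share samples. Under TMM, DESeq2 and plain library size scaling the median of all genes against SI tuft cells was 0.12, 0.36 and 1.02, and the 35 genes' median was -5.68, -5.43 and -4.79. The ratios were less alike than within the SI: over the 33 genes other than Fabp6 and Slc10a2 the SD was 1.47 against epithelium.

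Other measures moved with the organ as well. Mitochondrial genes took 4.38% to 5.97% of counts in thymic libraries. Of 4 myeloid markers, 4 were higher than in epithelium and 3 higher than in SI tuft cells. They summed to 193 to 249 CPM in the thymus, 12.0 to 18.5 CPM in epithelium and 12.6 to 42.4 CPM in SI tuft cells, and none was at 0 in the thymus. Of 4 fibroblast and endothelial markers, 2 were higher than in either SI group, with sums of 10.4 to 105 CPM against at most 3.18 CPM. Thymic library 4 was the highest, and Cdh5 was at 0 in thymic libraries 2 and 4. B cell markers summed to 21.2 to 36.8 CPM against at most 3.25 CPM in the SI, with 2 of 4 higher than in either SI group. The part of these cells in the thymic levels was not tested.

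Fabp6 was the exception. It measured 11.4, 25.7, 30.7 and 16.8 CPM in thymic libraries 1 to 4, above all 6 SI libraries. Its log2 ratio was 6.29 against SI tuft cells (SE 1.21, adjusted p = 0.000987) and 3.82 against epithelium (SE 1.04, adjusted p = 0.00901). With thymic library 4 as the only thymic library the latter had an adjusted p of 0.0518. Subtraction of the counts shared with epithelium left its thymic values at 11.4, 25.7 and 30.7 CPM in libraries 1 to 3. Slc10a2 stayed at 0 to 0.132 CPM in the thymus, and its call against epithelium (log2 ratio -3.21, adjusted p = 0.0458) was lost under 14 of 18 alternatives.

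A few other genes kept a level in the thymus. Mep1a, a meprin subunit, was at 25.5, 24.0, 29.1 and 14.9 CPM, each below its 30.7 to 33.7 CPM in epithelium (log2 ratio -0.46, SE 0.24, adjusted p = 0.122). Library 4 was the lowest, at 46.1% of the epithelial mean. Over 19 alternatives the log2 ratio against epithelium ran from -1.10 to -0.24. Mep1a was also lower than in SI tuft cells (-0.77, SE 0.24, adjusted p = 0.0172), a call lost under 4 of 19 alternatives. Cubn was the steadiest at 15.3, 15.9, 16.3 and 17.0 CPM. Xpnpep2 ranged from 3.25 to 9.11 CPM and Ada from 12.3 to 30.5 CPM. Slc10a2 aside, these were the genes least reduced against epithelium after Mep1a, at -2.55 for Xpnpep2, -2.58 for Cubn and -3.65 to -3.76 for Apoc3 and Ada.

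Alpi, Rbp2 and Npc1l1 were among the genes near the shared-count level in libraries 1 to 3, as were Fabp2, Slc7a9, Slc2a2 and Enpp7. Fabp2 stood at 1.27%, 1.09% and 1.13% of its epithelial mean there and at 0.622%, 0.178% and 0.285% after subtraction. Alpi stood at 13.3, 10.4, 9.41 and 1.31 CPM in thymic libraries 1 to 4, and after subtraction at 0.197, 0 and 0.693 CPM in libraries 1 to 3. Rbp2 fell from 15.7, 18.8 and 15.8 CPM to 2.00, 3.07 and 3.13 CPM, yet library 4, which had no estimated share, held 13.1 CPM. The abundant brush border genes Anpep and Slc5a1 lay above the shared-count level. Anpep stood at 2.31%, 2.16% and 1.76% of its epithelial mean in libraries 1 to 3 and at 1.24%, 1.35% and 1.15% after subtraction. Slc5a1 stood at 4.52%, 4.35% and 3.66% and at 3.36%, 3.66% and 3.01% after subtraction. Lct was listed at 0 CPM in library 4 and at 2.67 to 9.53 CPM in the others. Over the 33 genes other than Fabp6 and Slc10a2, the thymic level after subtraction was below 1% of the epithelial mean for 12, 14 and 12 genes in libraries 1 to 3. In library 4, as deposited, it was below 1% for 15.

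Fabp1 varied among the thymic libraries, at 13.2, 57.1, 77.2 and 64.4 CPM. Library 1 stood apart below the others, and after subtraction it held 3.96 CPM against 45.3 and 67.4 CPM in libraries 2 and 3. Apoa4, at 103, 138, 142 and 42.2 CPM, and Apoa1, at 83.0, 66.2, 83.1 and 17.6 CPM, were lowest in library 4. Slc5a1 was highest there, at 37.7 CPM against 21.4 to 26.5 CPM. The order of the thymic libraries thus differed from gene to gene among Fabp1, Apoa4, Apoa1 and Slc5a1.

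**Figure D4:**
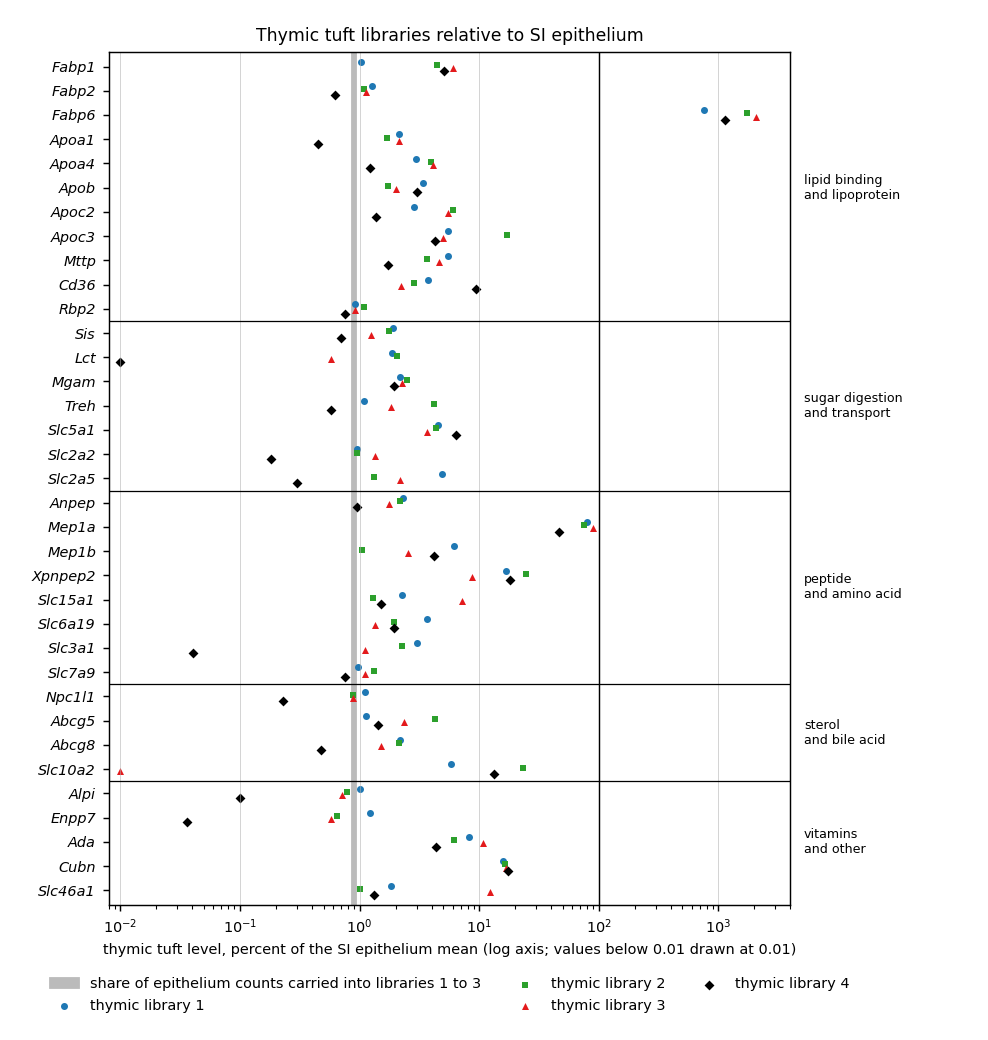
Level of each gene in each thymic tuft library as a percent of its mean in SI epithelium, on a log axis. The grey band of 0.860% to 0.937% is the share of 1 epithelial library's unscaled counts carried into each of libraries 1 to 3. The points are scaled levels over the epithelial mean, so band and points are in unlike units and can be compared only roughly. Rbp2, Npc1l1 and Alpi are among the genes at or near the band in libraries 1 to 3. Cubn, Xpnpep2 and Mep1a lie well above it, and Fabp6 lies above 100%.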

How the data were processed

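Poly(A) RNA of sorted cells was amplified with the NuGen Ovation RNA-Seq system and made into Nextera XT libraries, per the labels' protocols. These kits do not mark strand. Besides Abcg5, Abcg8 and Slc3a1, exons of Apoa4, Apoc2, Mttp, Treh and Cubn overlap those of other annotated genes. The deposited values are counts per Ensembl gene, and STAR, DESeq2 and GRCm38 are named, without their roles, in the submitters' processing notes. The counter and gene models are not given in the sources used here. Symbols and exon lengths came from GENCODE M21, which held 42548 of the 43432 identifiers, and promoters from RefSeq (GRCm38.p6), which matched 33 of 35 genes.

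The counts were filtered (filterByExpr, minimum count 10, total 15), scaled by TMM and fitted with edgeR 4.0.16 (quasi-likelihood, R 4.3.3) to all 10 libraries, 1 mean for each group. Adjusted p-values are Benjamini-Hochberg values over 19281 genes, and DESeq2 1.42.0 was an alternative. For the common factor the null log2 ratio was set to the 35 genes' median. The fit was tested on simulated data. Shared counts were estimated from 32 thymus-restricted genes and, in reverse, 5 to 7 epithelial genes. The epithelial genes were picked for low counts, relative to epithelium, in the SI tuft libraries and in thymic library 4. Library 4 is thus no separate check of that share. No pair of libraries of the same group agreed within sampling noise.

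The genes, lists and tests were chosen with earlier results of these data known. Values in every library are given for genes called in SI tuft cells and the highest and lowest ratio of each role, and up to 2 called genes each way with at least 10 CPM are named from each other enterocyte list. Fabp2, Fgf15, Cybrd1 and the thymic examples were added after their values were seen. Protein sequences, which had been planned for the Fabp genes, were not used here. The effect of 21 alternatives, and of some added after seeing the data, is given in the closing section.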

Additional observations from a re-analysis of the deposited data

Results flagged for a closer look

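In the thymic group 3 of the 35 genes had a library far from the others, by a gap above the 95% critical share of the range in Dixon's test for 4 samples. Chance flags about 1 in 20 groups. Apoc3 stood at 33.0 CPM in thymic library 2, with a gap of 0.903 of the range, against 8.28 to 10.7 CPM in the others. Slc46a1 stood at 8.72 CPM in library 3 (0.927 of the range), against 0.716 to 1.30 CPM. Slc15a1 stood at 5.96 CPM in library 3 (0.833 of the range), against 1.07 to 1.89 CPM.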

How the results depend on the processing

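Over the alternatives tried the direction of every called gene was kept, and thymic counts moved by at most 1 gene except where named. The counts for SI tuft cells against epithelium depend on which libraries set the spread. In place of 3 genes higher and 0 lower, 18 were higher and 1 lower with only the 2 groups compared, and 18 and 1 with thymic library 4 as the only thymic library. The DESeq2 Wald test called 1 lower (Fabp6). The genes that differed from the common factor were 11, 10 and, with the shared counts subtracted, 1, in place of 3. With thymic library 4 alone 0 genes were higher in the thymus than in epithelium, since Fabp6 missed the threshold, with its lone library assumed to vary like the other groups. The mean of the genes' log2 ratios was 0.28 in place of the median of 0.48.

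Leaving out each library in turn gave 2 to 10 genes higher (10 without thymic library 4), 0 to 1 lower (Fabp6, without SI tuft library 3), a common factor of 0.33 to 0.53 (0.33 without epithelial library 3) and 2 to 5 genes that differed from it (5 without thymic library 3). The following were added after seeing the data. With the SI libraries alone and DESeq2 size factors, 18 were higher, 1 lower and 11 differed from the factor. Leaving out each of these 6 libraries in turn gave 10 to 17 higher, 1 to 2 lower and 5 to 10 that differed. The lowest counts of 10 and 5 came without epithelial library 2.

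Replicate numbers were not taken as pairs, since the deviations of same-numbered libraries had correlations of -0.041 to 0.102. With the replicate number as a block 5 genes were higher and 1 lower, the call of Slc5a1 was lost (log2 ratio 0.62, adjusted p = 0.116) and Fabp6 was called (-3.12, adjusted p = 0.0490), and the common factor was 0.58. Gene by gene, 8 calls between the SI groups were lost and 48 gained over the alternatives that were not added later. Depth was no limit for most genes, but Fabp6 and Slc10a2 rested on few counts in the SI.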
